A study of Mus musculus with 60 samples.

Results

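The Slc38 genes encode the sodium-coupled neutral amino acid transporters (SNATs), and 8 of them, Slc38a1, Slc38a2, Slc38a3, Slc38a6, Slc38a7, Slc38a9, Slc38a10 and Slc38a11, were followed across the brains of mice with and without paraoxonase 2 (PON2), a membrane enzyme of mitochondria and the endoplasmic reticulum. They were picked by gene symbol from the 20423 genes of the deposited tables, which hold 11 Slc38 genes in all. The other 3 (Slc38a4, Slc38a5 and Slc38a8) are not described here. The family was chosen because Slc38a2 stood out between the genotypes in cortex, so the genotype values in cortex are given as a description, with no test.

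RNA was measured in 60 libraries of cerebellum, striatum and cerebral cortex, 5 for every combination of region, sex and genotype (12 groups). PON2-deficient mice were homozygous for the Pon2 defect and wild-type mice were their littermates, both from crosses of heterozygotes on a C57BL/6J background. Female and male mice were killed at 3 to 4 months of age after behavioural tests, which every group had been through, and the defect was present in the whole animal. Replicates are numbered within a group, and equal numbers in different regions are not stated to be 1 mouse, so a p-value here reflects only how these libraries scatter.

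Glutamine released by astrocytes is taken up by neurons, which turn it into glutamate and GABA, and the SNATs carry much of this traffic. Slc38a1 and Slc38a2 encode system A carriers, which use the sodium gradient to bring glutamine, alanine and other small neutral amino acids into cells. Slc38a3 encodes a system N carrier of astrocytes that can run in both directions and releases glutamine. Slc38a7 and Slc38a9 encode lysosomal proteins, the first an exporter of glutamine and asparagine and the second an arginine-sensing protein that reports amino acids to the kinase mTORC1. Slc38a6, Slc38a10 and Slc38a11 are less well characterised.

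All 8 are protein-coding genes of the mouse genome (GENCODE M21, GRCm38), and the system A pair lie close together on the minus strand, Slc38a1 at chr15:96571418-96642913 and Slc38a2 at chr15:96687392-96699730. Slc38a3 lies at chr9:107650634-107669530 (minus strand), Slc38a6 at chr12:73286779-73354049 (plus strand) and Slc38a7 at chr8:95835920-95853539 (minus strand). Slc38a9 lies at chr13:112660751-112738749 (plus strand), Slc38a10 at chr11:120103960-120151346 (minus strand) and Slc38a11 at chr2:65316430-65364034 (minus strand). The values are sums over all transcripts of a gene.

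The start regions of Slc38a2, Slc38a6 and Slc38a7 are shown because these members had the largest genotype differences in cerebellum. Each is the stretch of 250 bases before the annotated start, from RefSeq on GRCm38.p6, which listed 6 of the 8 genes. RefSeq starts differ from the GENCODE ones above, so the last bases of each printed stretch lie within the gene as GENCODE gives it. Capitals mark the motifs found on either strand, a GC box (GGGCGG, printed here as its reverse complement) in Slc38a2, a cAMP response element (TGACGTCA) in Slc38a6 and an E-box (CACGTG) in Slc38a7. That E-box lies within the gene as GENCODE gives it.
Slc38a2, chr15:96699729-96699978, minus strand: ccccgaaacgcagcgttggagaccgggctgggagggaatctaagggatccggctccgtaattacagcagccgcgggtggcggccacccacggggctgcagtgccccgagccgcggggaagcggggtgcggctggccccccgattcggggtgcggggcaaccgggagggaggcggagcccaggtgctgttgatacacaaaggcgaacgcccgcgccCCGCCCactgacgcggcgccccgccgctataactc
Slc38a6, chr12:73286598-73286847, plus strand: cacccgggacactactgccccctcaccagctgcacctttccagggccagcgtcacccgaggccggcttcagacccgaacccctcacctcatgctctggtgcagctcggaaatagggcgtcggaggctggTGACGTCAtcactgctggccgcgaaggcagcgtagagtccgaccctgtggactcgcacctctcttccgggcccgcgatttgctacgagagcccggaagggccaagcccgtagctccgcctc
Slc38a7, chr8:95853492-95853741, minus strand: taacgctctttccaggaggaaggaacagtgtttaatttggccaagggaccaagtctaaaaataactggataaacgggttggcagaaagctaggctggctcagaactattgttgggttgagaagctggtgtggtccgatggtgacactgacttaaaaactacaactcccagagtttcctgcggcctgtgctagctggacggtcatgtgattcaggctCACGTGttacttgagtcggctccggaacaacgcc
The Slc38a2 stretch had 72.0% GC and 30 CpG sites, the Slc38a6 stretch 66.4% and 21, and the Slc38a7 stretch 49.6% and 9, beside medians of 52.4% and 6.00 over all 32851 promoters. A GC box was found in 32.7% of all promoters, a cAMP response element in 1.55% and an E-box in 6.02%. None of the 6 stretches held the letters TGATGNAA, the core of an amino acid response element, which 3.45% of all promoters held, nor TATAAA, which 12.4% held. Bases beyond these stretches were not searched, so an element elsewhere in a gene would be missed. A CCAAT box (CCAAT) was found in Slc38a10 of the 6 and in 33.8% of all promoters. No marked motifs overlap in the printed stretches, and a match is only a run of letters.

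Library totals lay between 26091911 and 28125224 counts, and all 8 genes passed the filter on low counts in every comparison. Pon2 was low in every library labelled PON2-deficient, with a median of 0.633 CPM (the count scaled by library size) in PON2-deficient cerebellum and 41.4 CPM in wild-type cerebellum, 3.70 and 51.0 CPM in striatum, and 3.28 and 56.5 CPM in cortex. Markers of each region matched its label. All 8 markers of granule neurons and all 8 of Purkinje neurons were higher in cerebellum than in cortex, and all 8 of striatal projection neurons were higher in striatum than in cortex. Summed cortical excitatory neuron markers spanned 1813 to 2038 CPM in PON2-deficient and 1617 to 2126 CPM in wild-type cortex. In striatum they spanned 175 to 849 and 220 to 913 CPM, and in cerebellum 616 to 736 and 679 to 764 CPM. Summed striatal projection neuron markers spanned 729 to 1481 and 770 to 1306 CPM in cortex, and 4363 to 8526 and 4683 to 8620 CPM in striatum. The part of these cells in the region values was not tested. The library of striatum male PON2-deficient 5 stood apart, with a mean precision weight of 0.0527 of the median of its region, and cerebellum male wild-type 4 (0.324) and striatum male wild-type 5 (0.381) had the next lowest weights among the libraries named here.

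Per length, Slc38a1 and Slc38a2 were the most abundant members in cerebellum and Slc38a6 in the other regions. In CPM per kb of merged exon, the 20 cerebellum libraries averaged 24.8 ± 1.12 for Slc38a1 and 20.8 ± 2.38 for Slc38a2 (SD), ahead of Slc38a6 at 19.0 ± 2.01. In striatum Slc38a6 led at 16.2 ± 1.14 CPM per kb, followed by Slc38a10 at 13.1 ± 2.15 and Slc38a3 at 12.2 ± 1.70. In cortex Slc38a6 led at 19.4 ± 1.41 CPM per kb, ahead of Slc38a3 at 14.3 ± 1.57. The order in cerebellum and the first place in striatum and in cortex were the same whether merged exons or the longest coding transcript gave the length, while Slc38a10 moved to place 4 in striatum with the transcript length. The lysosomal Slc38a9 was lower, between 1.61 and 1.94 CPM per kb in the 3 regions. Slc38a11 was the least abundant, at 0.318 to 0.463 CPM per kb, which is 16.9 to 85.0 expected counts in a library, so its values carry the widest counting error.

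**Figure D1:**
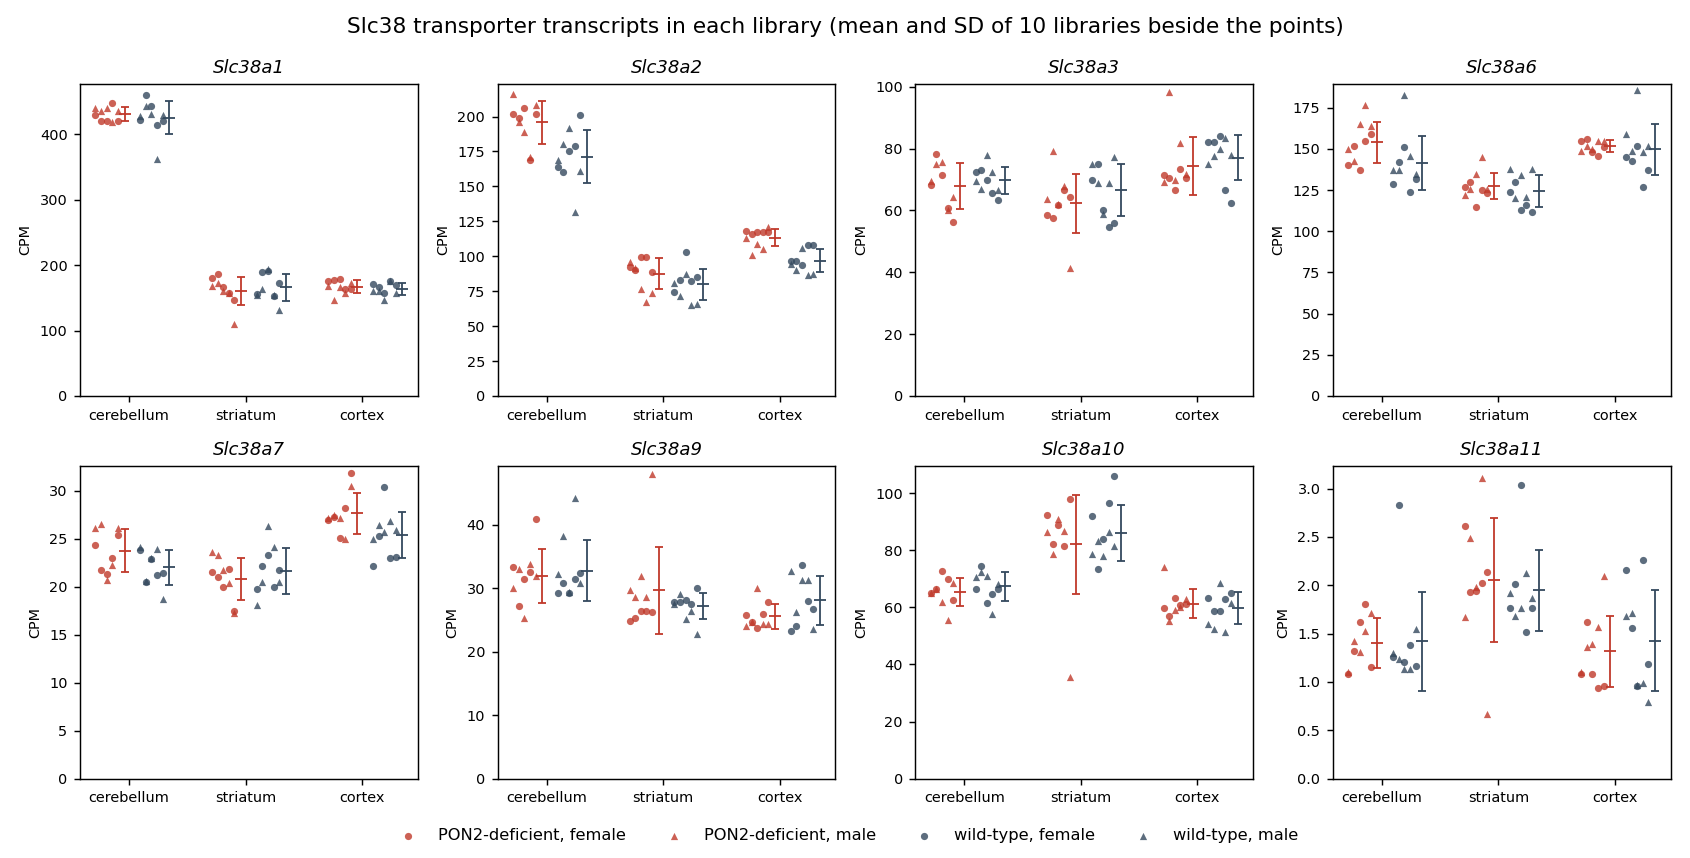
CPM of the 8 Slc38 genes in each of the 60 libraries by region, with PON2-deficient libraries left of wild-type ones, circles for females and triangles for males. Bars beside the points give the mean and SD of 10 libraries. Slc38a1 and Slc38a2 stood clear of the other regions in cerebellum, with Slc38a1 at 363 to 460 CPM there and at most 194 CPM elsewhere.

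The question of where each transporter is transcribed was addressed by comparing the regions over all 60 libraries. The system A transcripts had the largest cerebellar excess of the family, and Slc38a9 had a smaller one, described below. Slc38a1 measured 419 (lowest), 433 (median) and 448 CPM (highest) in the 10 PON2-deficient and 363, 429 and 460 CPM in the 10 wild-type cerebellum libraries. In striatum it measured 110, 163 and 187 CPM in PON2-deficient and 132, 159 and 194 CPM in wild-type libraries, and in cortex 146, 167 and 179 CPM in PON2-deficient and 146, 163 and 176 CPM in wild-type libraries. Every cerebellum library lay above every library of the other regions. Slc38a1 was 2.59-fold higher in cerebellum than in cortex (log2 difference 1.37, SE 0.0405, adjusted p = 5.08e-36) and 2.62-fold higher than in striatum (1.39, SE 0.0405, adjusted p = 2.30e-36). Striatum and cortex were neighbours that did not differ beyond their spread for Slc38a1 (-0.021, 95% interval -0.10 to 0.059, adjusted p = 0.684).

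Slc38a2 had the same top region and a graded order below it. It measured 169, 200 and 216 CPM (lowest, median, highest) in PON2-deficient and 132, 172 and 201 CPM in wild-type cerebellum. Striatum gave 67.4, 90.8 and 99.8 CPM in PON2-deficient and 65.4, 81.6 and 103 CPM in wild-type libraries, and cortex gave 101, 116 and 121 CPM in PON2-deficient and 86.3, 95.3 and 108 CPM in wild-type libraries. The lowest cerebellum library was above the highest of the other regions, while striatum and cortex overlapped. Slc38a2 was 1.75-fold higher in cerebellum than in cortex (0.81, SE 0.0440, adjusted p = 1.12e-23) and 2.19-fold higher than in striatum (1.13, SE 0.0443, adjusted p = 2.73e-30). It was lower in striatum than in cortex (-0.33, SE 0.0440, adjusted p = 5.35e-09). In tissue RNA, fewer cells of a type and less RNA per cell cannot be told apart.

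Slc38a10 and Slc38a11 were the striatal members. Slc38a10 measured 35.5, 86.5 and 97.9 CPM (lowest, median, highest) in PON2-deficient and 73.4, 83.7 and 106 CPM in wild-type striatum, where the value of 35.5 CPM came from male PON2-deficient 5. In cerebellum it measured 55.5, 65.7 and 72.9 CPM in PON2-deficient and 57.8, 67.4 and 74.7 CPM in wild-type libraries, and in cortex 55.2, 60.5 and 74.2 CPM in PON2-deficient and 51.3, 60.2 and 68.7 CPM in wild-type libraries. The other 19 striatum libraries lay between 73.4 and 106 CPM, and the libraries of the other regions between 51.3 and 74.7 CPM, a narrow overlap. Slc38a10 was 1.39-fold higher in striatum than in cortex (0.47, SE 0.0592, adjusted p = 9.30e-10), and lower in cerebellum than in striatum (-0.34, SE 0.0590, adjusted p = 1.02e-06). Without male PON2-deficient 5 these values were 0.52 and -0.38. The small excess of Slc38a10 in cerebellum over cortex (0.13, SE 0.0592, adjusted p = 0.0364) ended under DESeq2 (0.12, adjusted p = 0.0562) and in 6 of 60 cases with 1 library left out, at adjusted p of 0.0519 to 0.0578. These were cortex male wild-type 2 and 4, cortex male PON2-deficient 2, cerebellum female wild-type 2, cerebellum female PON2-deficient 3 and cerebellum male PON2-deficient 5.

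Slc38a11, although rare, was also highest in striatum. Its striatum libraries had medians of 2.00 CPM in PON2-deficient and 1.82 CPM in wild-type mice, beside 1.37 and 1.25 CPM in cerebellum and 1.23 and 1.38 CPM in cortex. It was 1.47-fold higher in striatum than in cortex (0.55, SE 0.130, adjusted p = 0.000237) and lower in cerebellum than in striatum (-0.50, SE 0.128, adjusted p = 0.000430). Cerebellum and cortex did not differ beyond their spread (0.053, 95% interval -0.21 to 0.32, adjusted p = 0.717).

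Slc38a6, Slc38a7 and Slc38a3 had their lowest values in striatum. Slc38a6 measured 115, 126 and 145 CPM (lowest, median, highest) in PON2-deficient and 112, 122 and 138 CPM in wild-type striatum, beside 137, 153 and 177 CPM in PON2-deficient and 124, 137 and 183 CPM in wild-type cerebellum. Cortex gave 146, 152 and 156 CPM in PON2-deficient and 127, 149 and 186 CPM in wild-type libraries. Slc38a6 was lower in striatum than in cortex (-0.26, SE 0.0341, adjusted p = 2.91e-09) and higher in cerebellum than in striatum (0.23, SE 0.0341, adjusted p = 2.76e-08). Cerebellum and cortex were neighbours within their spread for this gene (-0.031, 95% interval -0.10 to 0.038, adjusted p = 0.411).

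The lysosomal exporter Slc38a7 was highest in cortex, with medians of 23.7 CPM in PON2-deficient and 22.1 CPM in wild-type cerebellum, 21.2 and 21.1 CPM in striatum and 27.2 and 25.5 CPM in cortex. It was lower in striatum than in cortex (-0.32, SE 0.0449, adjusted p = 1.41e-08) and lower in cerebellum than in cortex (-0.21, SE 0.0447, adjusted p = 2.47e-05). The excess of Slc38a7 in cerebellum over striatum was small (0.11, SE 0.0450, adjusted p = 0.0261) and missed the threshold with the deposited log2 values (0.090, adjusted p = 0.0566) and without striatum male wild-type 1 (0.092, adjusted p = 0.0521). The arginine sensor Slc38a9 had medians of 32.3 CPM in PON2-deficient and 31.2 CPM in wild-type cerebellum, 27.6 and 27.7 CPM in striatum and 24.7 and 27.4 CPM in cortex. Slc38a9 was higher in cerebellum than in cortex (0.27, SE 0.0555, adjusted p = 1.72e-05) and than in striatum (0.19, SE 0.0554, adjusted p = 0.00164), while striatum and cortex did not differ beyond their spread (0.080, 95% interval -0.032 to 0.19, adjusted p = 0.221).

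The astrocyte carrier Slc38a3 differed least between the regions among the 8 genes. It measured 56.4, 68.9 and 78.4 CPM (lowest, median, highest) in PON2-deficient and 63.5, 69.7 and 78.0 CPM in wild-type cerebellum. Striatum gave 41.5, 62.9 and 79.2 CPM in PON2-deficient and 54.7, 69.0 and 77.4 CPM in wild-type libraries, with male PON2-deficient 5 at the bottom, and cortex gave 66.6, 71.0 and 98.2 CPM in PON2-deficient and 62.4, 78.8 and 84.0 CPM in wild-type libraries. The 3 regions overlapped. Slc38a3 was lower in striatum than in cortex (-0.23, SE 0.0526, adjusted p = 0.000139) and in cerebellum than in cortex (-0.14, SE 0.0525, adjusted p = 0.0166), and its difference between cerebellum and striatum missed the threshold (0.10, 95% interval -0.0078 to 0.20, adjusted p = 0.0839). That difference passed the threshold without striatum female wild-type 2 (0.12, adjusted p = 0.0415), without striatum male PON2-deficient 2 (0.12, adjusted p = 0.0265), without cerebellum female PON2-deficient 5 (0.11, adjusted p = 0.0479) and with the replicate number as a block (0.10, adjusted p = 0.0306). Of 10 markers of astrocytes, 9 were higher and 1 was lower in cerebellum than in striatum (median log2 difference 0.56), and 1 was higher and 8 were lower in striatum than in cortex (median -0.33). Summed choroid plexus markers had medians of 826 CPM in PON2-deficient and 1447 CPM in wild-type cerebellum, 43.9 and 60.6 CPM in striatum, and 59.1 and 89.8 CPM in cortex. Within groups Slc38a3 correlated with the choroid plexus mean at r = 0.77 in cerebellum, -0.31 in striatum and 0.13 in cortex. With the astrocyte mean it correlated at 0.38, 0.13 and 0.40. The part of these cells in the values of Slc38a3 was not tested.

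Counted over the family, 7 of the 8 genes passed the threshold between cerebellum and striatum, where 79.8% of all tested genes did, 6 between cerebellum and cortex (79.6% of all genes) and 6 between striatum and cortex (57.0%). These shares are near those of all genes. The directions differed. Against striatum, cerebellum was higher in 5 genes and lower in 2 (39.7% and 40.2% of all genes), and against cortex it was higher in 4 and lower in 2 (40.1% and 39.5% of all genes). Striatum was higher than cortex in 2 and lower in 4 (28.8% and 28.2% of all genes). The median size of the log2 difference was 0.28 for the 8 genes and 0.46 for all genes between cerebellum and striatum, 0.17 and 0.46 between cerebellum and cortex, and 0.29 and 0.21 between striatum and cortex. Among the 8 genes, only the cerebellar differences of Slc38a1 and Slc38a2 had no overlap between libraries, and each was 1.75-fold or more. The share of all genes with no such overlap was not counted.

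**Figure D2:**
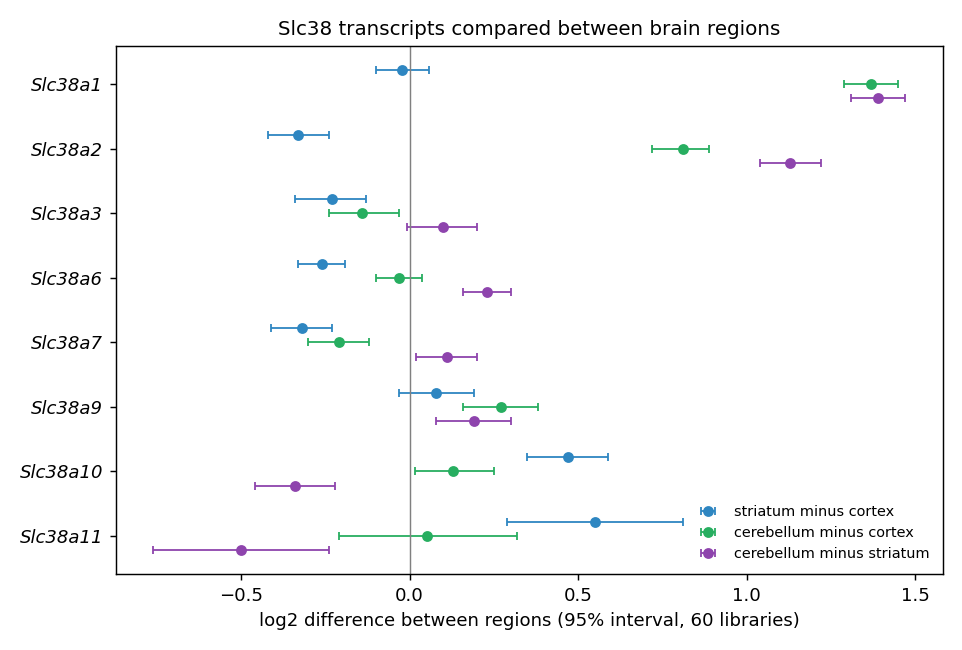
Log2 differences of the 8 Slc38 genes between regions over 60 libraries, as striatum minus cortex, cerebellum minus cortex and cerebellum minus striatum, with 95% intervals. Slc38a1 and Slc38a2 lie far to the right for cerebellum (0.81 to 1.39), while Slc38a10 and Slc38a11 are split between a striatal excess over cortex (0.47 and 0.55) and a cerebellar deficit against striatum (-0.34 and -0.50).

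The effect of the loss of PON2 was compared within each region as the mean of both sexes. In cortex, where Slc38a2 led to the choice of the family, it measured 118, 116, 117, 117 and 117 CPM in PON2-deficient females and 96.9, 96.4, 93.5, 108 and 108 CPM in wild-type females. PON2-deficient males gave 113, 101, 109, 105 and 121 CPM and wild-type males 94.2, 90.1, 106, 86.3 and 87.1 CPM. All 5 PON2-deficient females lay above all 5 wild-type females, and the males of the genotypes overlapped. How many of all genes separate the females in this way was not counted. The means over 10 libraries were 113 ± 6.37 CPM in PON2-deficient and 96.6 ± 8.15 CPM in wild-type cortex (SD), a log2 difference of 0.23, with 0.22 in females and 0.24 in males. It stayed between 0.21 and 0.25 with any 1 library left out and between 0.21 and 0.24 under the other alternatives. These ranges describe the values that chose the family and are no support for them. Slc38a2 is the 1 member counted as called in cortex, beside 0.0316% of all genes. No member was called in 15 of 20 cases with 1 library left out. The call of Slc38a2 is what chose the family, and nothing is read from it.

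The other 7 genes differed by less in cortex, between -0.14 for Slc38a9 and 0.12 for Slc38a7. Slc38a7 had a median of 27.2 and at most 31.8 CPM in PON2-deficient and a median of 25.5 and at most 30.4 CPM in wild-type cortex, with 8 of 10 PON2-deficient libraries above the wild-type median. Slc38a9 measured 23.7, 24.7 and 30.1 CPM in PON2-deficient and 23.3, 27.4 and 33.7 CPM in wild-type cortex, so the lysosomal exporter and the lysosomal sensor had opposite signs. All 7 overlapped between the genotypes.

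The choice of the family rested on cortex, and cerebellum and striatum carry the tests. Their libraries may come from the same mice as the cortex libraries, so these tests may not be independent of the choice. In cerebellum Slc38a2 measured 202, 199, 206, 169 and 202 CPM in PON2-deficient females and 164, 160, 175, 179 and 201 CPM in wild-type females. PON2-deficient males gave 216, 196, 189, 171 and 208 CPM and wild-type males 169, 180, 192, 132 and 161 CPM. Of the 10 PON2-deficient libraries 8 lay above the wild-type median and 5 above the highest wild-type library, so the groups overlapped. The means were 196 ± 15.3 CPM in PON2-deficient and 171 ± 19.2 CPM in wild-type cerebellum (SD, n = 10 each). The log2 difference was 0.19 (SE 0.0615, 95% interval 0.065 to 0.32), which did not pass the threshold over all genes (unadjusted p = 0.00504, adjusted p = 0.214). It stayed between 0.15 and 0.22 with any library left out, and was 0.15 (adjusted p = 0.235) without wild-type male 4, the library with the low value of 132 CPM.

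In striatum the Slc38a2 libraries of PON2-deficient females gave 92.2, 90.1, 99.8, 99.1 and 88.9 CPM and those of wild-type females 74.7, 83.3, 103, 82.1 and 85.3 CPM. PON2-deficient males gave 95.8, 91.4, 76.6, 67.4 and 73.5 CPM and wild-type males 81.0, 71.5, 87.0, 65.4 and 65.8 CPM. The genotypes overlapped widely, with 7 of 10 PON2-deficient libraries above the wild-type median and none above the highest wild-type library. The log2 difference was 0.13 (SE 0.0753, 95% interval -0.026 to 0.29, unadjusted p = 0.0979, adjusted p = 0.995). The cerebellar difference was not distinguished from the striatal one (cerebellum minus striatum 0.063, 95% interval -0.11 to 0.24, adjusted p = 0.959).

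**Figure D3:**
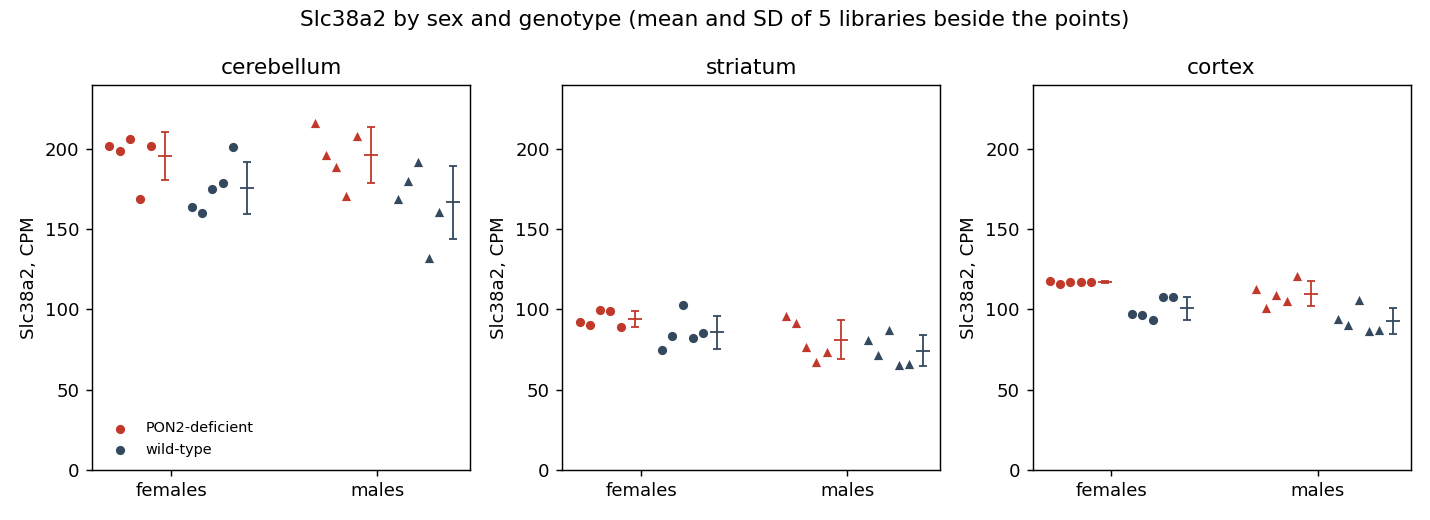
CPM of Slc38a2 in each library by region, sex and genotype, PON2-deficient left of wild-type, with the mean and SD of 5 libraries beside the points. In cortex the 5 PON2-deficient females sit between 116 and 118 CPM and the wild-type females between 93.5 and 108 CPM, while in cerebellum and striatum the genotypes overlap.

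Slc38a6 and Slc38a7 had the next largest cerebellar values. Slc38a6 averaged 154 ± 12.5 CPM in PON2-deficient and 142 ± 16.7 CPM in wild-type cerebellum (SD, n = 10 each), with 9 of 10 PON2-deficient libraries above the wild-type median, but the highest single value of 183 CPM came from wild-type male 3. The log2 difference was 0.12 (SE 0.0567, 95% interval 0.0028 to 0.24, unadjusted p = 0.0453, adjusted p = 0.437) and 0.17 without that library, the highest of the values with 1 library left out, whose lowest adjusted p was 0.118. Slc38a7 measured 20.7, 23.7 and 26.5 CPM (lowest, median, highest) in PON2-deficient and 18.7, 22.1 and 24.1 CPM in wild-type cerebellum, with 5 PON2-deficient libraries above every wild-type one. Its log2 difference was 0.11 (SE 0.0578, 95% interval -0.011 to 0.23, adjusted p = 0.498).

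The other members were close to 0 in cerebellum. Slc38a1 differed by 0.019 (95% interval -0.051 to 0.090) and Slc38a10 by -0.043 (95% interval -0.14 to 0.058). Slc38a3 differed by -0.036 (95% interval -0.15 to 0.082) and was 0.028 once the mean of the choroid plexus markers entered the model. Slc38a9 differed by -0.034 (95% interval -0.19 to 0.12) was 0.012 without wild-type male 4, and was -0.11 (adjusted p = 0.648) with the choroid plexus marker mean as a covariate. The interval of Slc38a11 was the widest, -0.34 to 0.32 around -0.012.

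**Figure D4:**
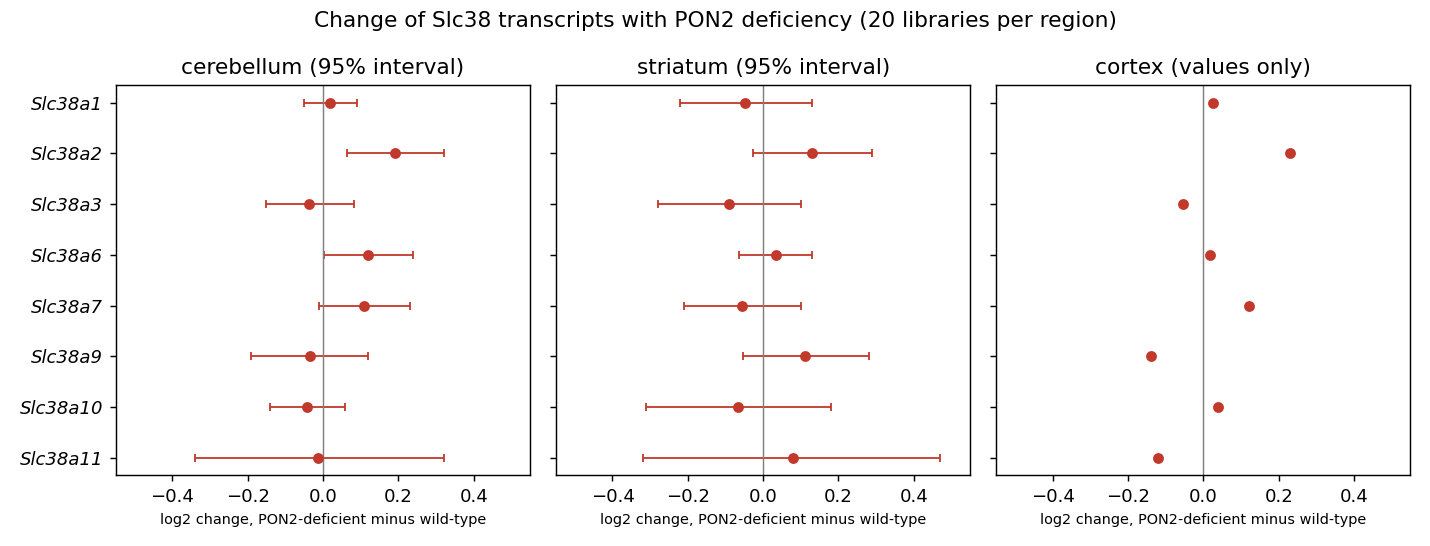
Log2 difference of each Slc38 gene, PON2-deficient minus wild-type, in cerebellum, striatum and cortex (20 libraries per region). Bars are 95% intervals in cerebellum and striatum, and cortex shows the values without intervals because they chose the family. In cerebellum Slc38a2 is the highest point (0.19). In striatum it is at 0.13, but without male PON2-deficient 5 Slc38a11 is at 0.19 and Slc38a2 at 0.15.

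Over the family, edgeR called 0 of the 8 genes by genotype in cerebellum, where it called 0.0321% of all genes, and 0 in striatum, where it called 0.0105%. At an unadjusted p under 0.05, 2 of 8 members stood in cerebellum (Slc38a2 and Slc38a6), beside 11.1% of all genes, and 0 in striatum, beside 4.94%. DESeq2 and limma on the deposited values also called 0 members in both regions. Values were higher in PON2-deficient mice for 4 genes and lower for 4 in cerebellum, and likewise 4 and 4 in striatum. The median difference of the family was 0.0037 in cerebellum and -0.0068 in striatum, beside 0.00090 and 0.0098 over all tested genes. No member was called for a difference of the genotype effect between cerebellum and striatum either, where 0.00981% of all genes were called, with 0 members at an unadjusted p under 0.05 (5.97% of all genes) and 0 called by DESeq2.

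Striatal values of several members rested on male PON2-deficient 5. In that library Slc38a1 was at 110 CPM, beside 157 to 173 CPM in the other 4 PON2-deficient males, Slc38a10 at 35.5 CPM beside 78.9 to 91.0 CPM, and Slc38a9 at 48.0 CPM beside 28.6 to 32.0 CPM. With and without it the log2 difference was -0.049 and 0.00098 for Slc38a1, -0.067 and 0.023 for Slc38a10, 0.11 and 0.029 for Slc38a9 (0.0048 with the deposited values), and -0.091 and -0.032 for Slc38a3. For Slc38a11 it was 0.078 and 0.19, and for Slc38a2 0.13 and 0.15. None of these passed the threshold in either fit. The same library had 0.663 CPM of Slc38a11, the lowest value of that gene in the study.

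**Figure D5:**
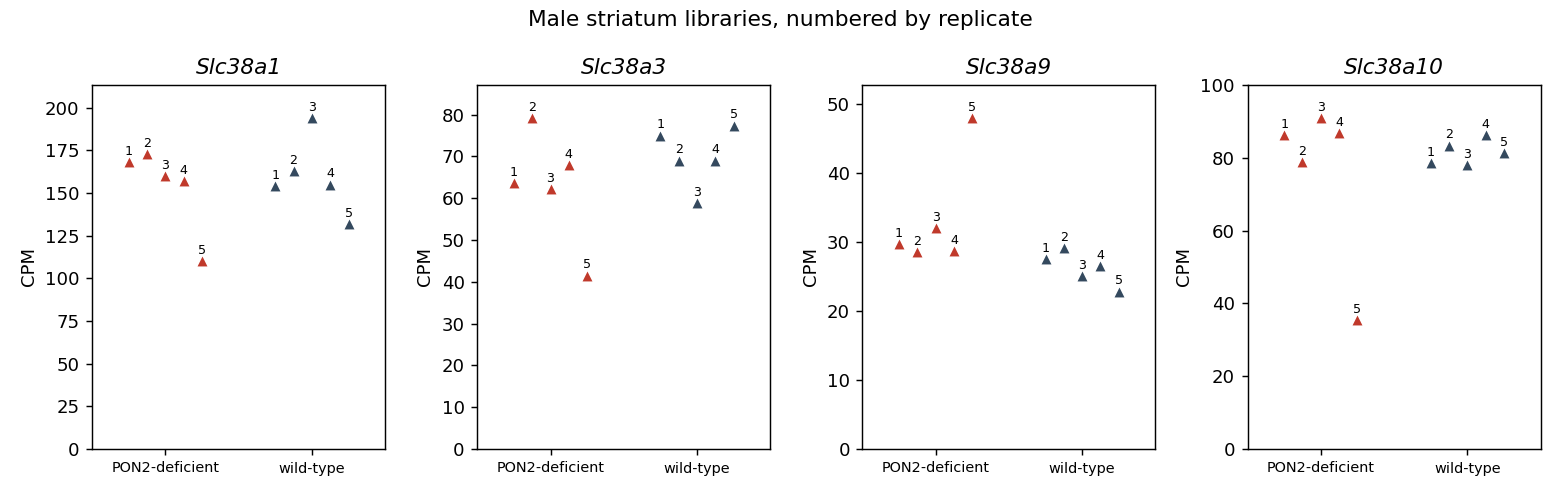
CPM of Slc38a1, Slc38a3, Slc38a9 and Slc38a10 in the male striatum libraries, PON2-deficient left of wild-type, with the replicate number above each point. PON2-deficient 5 is the lowest for Slc38a1 (110 CPM), Slc38a3 (41.5 CPM) and Slc38a10 (35.5 CPM) and the highest for Slc38a9 (48.0 CPM).

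Slc38a9 in striatum was the member whose genotype difference differed most between the sexes in that region. Females gave 24.9, 25.4, 26.5, 26.5 and 26.3 CPM without PON2 and 27.8, 27.9, 28.2, 27.5 and 30.1 CPM in wild-type mice, with no overlap. The share of all genes so separated was not counted. PON2-deficient males gave 29.7, 28.6, 32.0, 28.7 and 48.0 CPM and wild-type males 27.5, 29.1, 25.1, 26.5 and 22.8 CPM, with an overlap. The log2 difference was -0.12 in females (95% interval -0.36 to 0.11, unadjusted p = 0.284 in edgeR) and 0.34 in males (SE 0.112, unadjusted p = 0.00579, adjusted p = 0.792). All groups of the region share a spread in this fit, so the female interval also holds the scatter of the males. The male value was 0.18 without male PON2-deficient 5 (adjusted p = 0.783) and 0.15 with the deposited log2 values and weights (adjusted p = 0.631). The male value minus the female value was 0.47 (SE 0.158, unadjusted p = 0.00770, adjusted p = 0.880), 0.31 (adjusted p = 0.676) without male PON2-deficient 5 and 0.29 (adjusted p = 0.458) with the deposited values. For the same difference between the sexes, 12 of 12 choroid plexus markers were lower (median -1.05) and 8 of 8 oligodendrocyte markers higher (median 0.45), none of them called, and their part was not tested. edgeR called 0.00527% of all genes by genotype in female striatum, 0.00527% in male striatum and 0% for the difference between the sexes.

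In cortex 2 of 8 members had an unadjusted p under 0.05 for the male minus the female genotype difference, as had 9.56% of all genes, while edgeR called 0 members and 0% of all genes at the adjusted threshold. Slc38a6 averaged 151 ± 4.15 CPM in PON2-deficient and 141 ± 9.19 CPM in wild-type females, against 152 ± 2.81 CPM in PON2-deficient and 159 ± 15.9 CPM in wild-type males (SD, n = 5 each). The male minus female value was -0.17 (SE 0.0746, adjusted p = 0.494 in edgeR) and -0.10 without wild-type male 3, which measured 186 CPM. For Slc38a11 the medians were 1.08 CPM in PON2-deficient and 1.56 CPM in wild-type females, and 1.39 CPM in PON2-deficient and 0.992 CPM in wild-type males, a male minus female value of 0.80 (SE 0.377, adjusted p = 0.517). Slc38a2 had a male minus female value of 0.083 in cerebellum (95% interval -0.17 to 0.34), -0.014 in striatum (-0.33 to 0.30) and 0.021 in cortex (-0.15 to 0.19). These intervals are as wide as the genotype differences, so they do not show that the sexes respond alike. In cerebellum 0 members had an unadjusted p under 0.05 for this comparison (4.73% of all genes), 0% of all genes were called, and DESeq2 and limma called 0 members in the 3 regions.

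edgeR called 0 members between males and females in cerebellum, striatum and cortex, where it called 0.118%, 0.105% and 0.0896% of all genes, and DESeq2 and limma called 0 as well. At an unadjusted p under 0.05 there were 0 members in cerebellum and 2 of 8 each in striatum and cortex, Slc38a2 and Slc38a6, beside 7.24%, 7.82% and 10.5% of all genes in the 3 regions. Slc38a2 averaged 77.5 ± 10.9 CPM in males and 89.9 ± 8.97 CPM in females in striatum (log2 male minus female -0.21, SE 0.0753, adjusted p = 0.468), and 101 ± 11.5 and 109 ± 9.89 CPM in cortex (-0.10, SE 0.0401, adjusted p = 0.388). Slc38a6 had the opposite sign, with 130 ± 8.56 CPM in males and 122 ± 6.90 CPM in females in striatum (0.10, SE 0.0471, adjusted p = 0.615) and 156 ± 11.3 and 146 ± 8.59 CPM in cortex (0.10, SE 0.0373, adjusted p = 0.370). Its value in cerebellum was 0.12 (SE 0.0567, adjusted p = 0.692). Markers of other cells differed between the sexes too, none of them called. In striatum males had lower values of 12 of 12 choroid plexus (median -1.33), 8 of 8 meningeal (-0.27), 8 of 8 oligodendrocyte (-0.17) and 7 of 10 astrocyte markers (-0.15) and higher values of 8 of 8 cortical excitatory neuron markers (0.48), and in cortex higher values of 11 of 12 choroid plexus (0.67) and 8 of 8 meningeal markers (0.32). Their part in the values of Slc38a2 and Slc38a6 was not tested.

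The spread within groups differed between members. Slc38a1 in cerebellum had a coefficient of variation of 2.03% to 7.59% among the 5 libraries of a group, the PON2-deficient females had 0.779% for Slc38a2 in cortex, and Slc38a11 had 9.15% to 46.3% over the 12 groups. After the mean of each group was subtracted, the 28 pairs of members had 5 correlations of 0.3 or more and 4 of -0.3 or less over 60 libraries, and 2 and 1 without striatum male PON2-deficient 5. The system A pair Slc38a1 and Slc38a2 kept r = 0.43 with and 0.42 without that library (0.37 in cerebellum, 0.55 in striatum, 0.12 in cortex). The other pair still at 0.3 or more, Slc38a1 and Slc38a11, had r = 0.50 and 0.33 (0.38 in cerebellum, 0.63 in striatum, 0.39 in cortex). Slc38a3 and Slc38a9 had r = -0.48 and -0.33. Slc38a1 and Slc38a10 had r = 0.42 and 0.072 (0.70 in cerebellum, 0.47 in striatum, -0.067 in cortex). These libraries share scaling and dissection, and the values are a description.

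Genes most like 3 of the members were listed by the same measure among 15980 genes. Slc38a2 varied most like Tor1aip1 (r = 0.66), Paqr8 (0.64), Homer2 (0.62), Gfap (0.62), the intermediate filament of astrocytes, and Scd1 (0.61), a fatty acid desaturase. Slc38a3 varied most like Sfxn5 (0.75, a mitochondrial carrier of the sideroflexin family), Kif1c (0.74), Serp1 (0.72), Gpr37l1 (0.69, a receptor of astrocytes) and Jam2 (0.68). Without striatum male PON2-deficient 5 the values were 0.60 to 0.66 for the list of Slc38a2 and 0.57 to 0.70 for that of Slc38a3. For the rare Slc38a11 the list was Rab18, Hnrnpu and Adam22 (each 0.64), Gm15298 (0.63) and Zbtb37 (0.62), all at 0.46 to 0.52 without that library.

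Markers of other cells were measured beside the family. The summed level of the 12 choroid plexus markers spanned 35.9 to 2747 CPM in PON2-deficient and 578 to 2291 CPM in wild-type cerebellum, 32.0 to 1941 and 34.7 to 1239 CPM in striatum, and 17.7 to 536 and 25.5 to 498 CPM in cortex. All 12 had lower values in PON2-deficient cerebellum (median -0.35) and cortex (median -0.86), none of them called and none at 0 in all libraries of a group. With their mean in the model the Slc38a2 difference in cerebellum was 0.22 (adjusted p = 0.239). The 8 meningeal fibroblast markers summed to 141 to 277 CPM in PON2-deficient and 206 to 272 CPM in wild-type cerebellum, 51.4 to 127 and 44.1 to 87.4 CPM in striatum, and 102 to 166 and 97.2 to 313 CPM in cortex. In PON2-deficient mice 8 of 8 were lower by value in cerebellum (median -0.26), 5 of 8 in striatum (median -0.031) and 7 of 8 in cortex (median -0.24), none of them called. At an unadjusted p under 0.05 in edgeR, 3 of the 8 stood in cerebellum, beside 11.1% of all genes. Other lists there had 3 of 8 (granule neurons), 3 of 10 (astrocytes) and 2 of 6 (cortical excitatory neurons). The rest had 1 of 8 (microglia, Purkinje neurons, striatal projection neurons), 0 of 8 (oligodendrocytes, endothelial cells, neurons in general) or 0 of 12 (choroid plexus). Slc38a7 and Slc38a9 correlated with the meningeal mean at r = -0.51 and -0.53 within cerebellum groups (20 libraries), and the part of meningeal cells in the genotype values was not tested. The 10 astrocyte markers summed to 2721 to 3070 CPM in PON2-deficient and 2782 to 3034 CPM in wild-type cerebellum, 1601 to 1960 and 1651 to 2077 CPM in striatum, and 2073 to 2399 and 2012 to 2245 CPM in cortex, with 4, 6 and 8 of the 10 higher in PON2-deficient mice. With the astrocyte mean in the model the Slc38a2 difference in cerebellum was 0.21 (adjusted p = 0.189). Within groups Slc38a2 correlated with the astrocyte mean at r = 0.35 in cerebellum, 0.66 in striatum and -0.18 in cortex (20 libraries each), and Slc38a3 with the choroid plexus mean at 0.77 in cerebellum. With the striatal projection neuron mean Slc38a2 correlated at -0.26 in cerebellum, -0.64 in striatum and 0.18 in cortex. With the oligodendrocyte mean it correlated at 0.058, 0.46 and -0.023. The part of the cell mixture in these correlations was not tested.

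The pathways around the transporters were read from 4 lists, and no gene of any of them was called by genotype in any region. The cycle of glutamate, glutamine and GABA had 8 genes higher and 10 lower in PON2-deficient cerebellum (median -0.0021), 6 and 13 in striatum (median -0.025) and 8 and 11 in cortex (median -0.025), with 2 of 18 genes in cerebellum and 0 of 19 in striatum at an unadjusted p under 0.05, which 11.1% and 4.94% of all genes reached. Gls2, a glutaminase, came nearest in cerebellum (0.25, SE 0.0570, adjusted p = 0.113), followed by the astrocyte glutamate transporter Slc1a3 (-0.093, SE 0.0338, adjusted p = 0.293). Among the other amino acid transporters 15 of 23 genes were higher in cerebellum (median 0.030) and 6 of 22 in striatum (median -0.052), with 4 of 23 and 1 of 22 at an unadjusted p under 0.05, against the same 11.1% and 4.94% of all genes. The neutral amino acid exchanger Slc7a8 was lower by value in both, at -0.20 in cerebellum (SE 0.0374, adjusted p = 0.0597) and -0.21 in striatum (SE 0.0766, adjusted p = 0.844).

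Genes of the amino acid response, the ATF4-dependent programme that is known to induce Slc38a2 when amino acids are scarce, and of serine synthesis were higher by value in 15 of 24 cases in cerebellum (median 0.058), 10 of 24 in striatum (median -0.014) and 15 of 24 in cortex (median 0.025). At an unadjusted p under 0.05 there were 3 of 24 in cerebellum and 1 of 24 in striatum, near the 11.1% and 4.94% of all genes. The nearest to the threshold were Eif2ak4, the kinase that senses uncharged tRNA, in cerebellum (0.13, SE 0.0401, adjusted p = 0.196) and the transcription factor Atf5 in striatum (-0.21, SE 0.0692, adjusted p = 0.783). Of the 36 genes of lysosomal nutrient sensing through mTORC1, 25 were higher by value in cerebellum (median 0.017), 16 in striatum (median -0.0086) and 18 in cortex (median 0.00076), and 2 and 1 of the 36 had an unadjusted p under 0.05 in cerebellum and striatum, which is below the 11.1% and 4.94% of all genes. Tsc2, a brake on mTORC1, differed by 0.15 in cerebellum (SE 0.0651, adjusted p = 0.374).

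Between regions each list had genes called in both directions, as had all genes, with 39.7% higher and 40.2% lower in cerebellum than in striatum, 40.1% and 39.5% in cerebellum than in cortex and 28.8% and 28.2% in striatum than in cortex. Of 19 genes of the glutamate, glutamine and GABA cycle, 7 were called higher and 11 lower in cerebellum than in striatum, 7 and 9 in cerebellum than in cortex, and 7 and 6 in striatum than in cortex. The glial glutamate transporters parted, with Slc1a3 higher in cerebellum than in striatum (1.26, SE 0.0336, adjusted p = 4.09e-38) and Slc1a2 lower (-1.60, SE 0.0506, adjusted p = 1.34e-34). Of the 24 other amino acid transporters 13 were higher and 10 lower in cerebellum than in striatum, with the neuronal glycine transporter Slc6a5 higher by 8.05 (log2, SE 0.158, adjusted p = 1.25e-44). In the amino acid response and serine synthesis list 10 of 24 were higher and 7 lower in cerebellum than in striatum, with Shmt2, a mitochondrial serine enzyme, at 0.89 (SE 0.0543, adjusted p = 1.17e-21) and Psat1, a serine synthesis enzyme, at -0.83 (SE 0.0483, adjusted p = 1.67e-22). Among the 36 mTORC1 nutrient sensing genes 14 were higher and 12 lower in cerebellum than in striatum, with Fnip2 at 1.02 (SE 0.0452, adjusted p = 1.06e-27) and the Rag GTPase Rragd at -0.88 (SE 0.0392, adjusted p = 1.00e-27).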

How the data were processed

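RNA was measured in 60 mouse brain libraries. The authors deposited expected counts per gene, log2 CPM values made with voom, and a voom precision weight (a score) for each value. Salmon, edgeR and limma are named without versions in the submitters' processing notes, and no build or annotation is named in what was used here. The authors' deposited log2 values were recomputed from the counts to within 5.33e-14, and 0 columns of the tables were left unused.

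Expected counts were rounded, filtered with filterByExpr and scaled by TMM. edgeR 4.0.16 (R 4.3.3) quasi-likelihood tests used group means, in 1 fit of 20 libraries per region for genotype and sex and 1 fit of 60 libraries for differences between regions, with Benjamini-Hochberg adjustment over the 18972 genes tested in cortex, 18962 in striatum, 18710 in cerebellum and 20387 over all regions. A gene was called at an adjusted p under 0.05. CPM levels share 1 scaling of the 60 libraries. The log2 CPM behind the correlations and the marker means use a prior count of 2. Log2 differences come from the edgeR fits with their default prior count. Regions are tested as separate libraries, although mice may be shared. No 2 libraries repeated each other, with 0.986 the highest correlation of log2(count + 1) between libraries. Totals of 26091911 to 28125224 counts limit precision, and SDs and SEs also hold differences between mice.

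The 8 members and all gene lists were chosen with earlier results of these data known. Named list genes come from the 2 with the smallest p by genotype and the 3 highest and 3 lowest called between regions, and genes like a member are the 5 with the highest r among those averaging at least 1 CPM. Alternatives were DESeq2 1.42.0, limma 3.58.1 on the deposited values and weights, no filter, a replicate block, marker means as covariates, 1 fit over all libraries, and each library left out. Scripts were tested on simulated data. Equal replicate numbers were not treated as pairs, since the labels do not tie them to a mouse.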

Additional observations from a re-analysis of the deposited data

Results flagged for a closer look

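Of 96 groups of 5 libraries (8 genes in 12 groups), 13 held a library far from the other 4, where chance gives about 1 in 20. Striatum male PON2-deficient 5 gave 3 of them, with 110 CPM for Slc38a1 (others 157 to 173 CPM), 48.0 CPM for Slc38a9 (28.6 to 32.0 CPM) and 35.5 CPM for Slc38a10 (78.9 to 91.0 CPM). Cerebellum male wild-type 4 gave 2, with 363 CPM for Slc38a1 (428 to 443 CPM) and 57.8 CPM for Slc38a10 (68.2 to 72.5 CPM). Male wild-type 3 was high for Slc38a6 in both cerebellum, at 183 CPM (135 to 146 CPM), and cortex, at 186 CPM (148 to 159 CPM).

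The other 6 were single values. Slc38a1 was at 419 CPM in cerebellum male PON2-deficient 4 (others 435 to 441 CPM), and Slc38a2 was at 169 CPM in cerebellum female PON2-deficient 4 (199 to 206 CPM). Slc38a9 was at 30.1 CPM in cortex male PON2-deficient 3 (24.0 to 24.7 CPM) and at 30.1 CPM in striatum female wild-type 5 (27.5 to 28.2 CPM). Slc38a11 was at 1.62 CPM in cortex female PON2-deficient 2 (0.939 to 1.08 CPM) and at 2.83 CPM in cerebellum female wild-type 2 (1.16 to 1.38 CPM).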

How the results depend on the processing

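With 1 library left out, 310 of 320 genotype values of single members in striatum and cerebellum kept their direction and side of the threshold, as did 1428 of 1440 region values. In cortex, where no test was made of single members, the sign turned in 2 of 160 values, to -0.00085 for Slc38a6 and -0.00096 for Slc38a10. The count of members called by genotype in cortex, which chose the family and is no test, was 1 and went to 0 with the choroid plexus or the astrocyte covariate (the second chosen after seeing the data) and in 1 fit over all libraries, and to 0 to 1 with a library left out (0 in 15 of 20 cases). Members called ranged over 5 to 6 for cerebellum against cortex, 6 to 8 for cerebellum against striatum and 6 to 6 for striatum against cortex.

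Other signs turned as follows. With the deposited log2 values striatum genotype gave 0.0029 for Slc38a1, 0.0066 for Slc38a7 and 0.0014 for Slc38a10, Slc38a1 in striatum against cortex gave 0.013 and the sex difference of the Slc38a2 genotype value in striatum 0.0029. Slc38a3 in cerebellum was 0.028 with the choroid plexus covariate and Slc38a11 in cerebellum 0.012 with the replicate block. With a library left out, striatum genotype values ranged over -0.080 to 0.00098 (Slc38a1), -0.10 to 0.023 (Slc38a10) and -0.032 to 0.19 (Slc38a11), and cerebellum ones over -0.0063 to 0.031 (Slc38a1), -0.077 to 0.012 (Slc38a9) and -0.066 to 0.15 (Slc38a11). The ranges were -0.037 to 0.0073 for Slc38a1 in striatum against cortex, -0.026 to 0.093 for Slc38a11 in cerebellum against cortex, -0.017 to 0.070 and -0.089 to 0.054 for the sex difference of the Slc38a2 genotype value in cortex and striatum, and -0.062 to 0.0034 for Slc38a2 by sex in cerebellum.

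Over all genes, genotype calls in cortex were 6, against 30 with the replicate block, 232 with DESeq2, 2 in 1 fit over all libraries and 1 to 26 with a library left out. In striatum they were 2, against 1 with the block, 6 with DESeq2 and 4 in 1 fit. In cerebellum they were 6, against 16 with the deposited values, 242 with DESeq2, 13 in 1 fit and 1 to 49 with a library left out. By sex they were 17 in cortex (11 with the block, 10 with the choroid plexus covariate, 69 with DESeq2), 20 in striatum (57 with the deposited values, 55 with DESeq2, 145 in 1 fit) and 22 in cerebellum (44 with DESeq2). The sex difference of the genotype effect gave 0, against 52, 6 and 1 with DESeq2 in cortex, striatum and cerebellum and 6 in striatum in 1 fit, and the genotype effect in cerebellum against striatum gave 2, against 7 with DESeq2. The cause was not tested. Same-numbered libraries of the genotypes correlated above 0.1 in 13 of 30 pairs, and 11 of 30 correlated best with their own number, with all 5 pairs above 0.1 in male striatum (0.11 to 0.50). Across regions 31 of 60 pairs were above 0.1 and 36 of 60 correlated best with their own number, all 5 in female wild-type cerebellum and cortex, a hint from the data and not from the labels. With the replicate block Slc38a3 was called in cerebellum against striatum (0.10, adjusted p = 0.0306).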
